A study of Homo sapiens with 16 samples.

Results

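The profile described here is that of 2 RNA-seq libraries, those labelled shNELFE with DMSO and shCTL with HMBA, both numbered 1, out of 16 in the series. They were chosen by their measured values: their expression profiles were alike, with CDH1 and KRT19 high and VIM near 0, although their labels differ. They are set beside 4 libraries numbered 2, labelled shCTL with DMSO, shNELFE with DMSO, shCTL with EPZ-5676 and shNELFE with EPZ-5676, which share another profile and are called HCT116-like. Values of the 2 are given in the order named here, and so are values of the 4. All 16 libraries are labelled HCT116, a human colorectal carcinoma cell line, and the 8 groups of the study have 2 libraries each. In the groups named shNELFE a short hairpin RNA targets NELFE, and those named shCTL have a control hairpin; NELFE is the RNA-binding subunit of the negative elongation factor that pauses RNA polymerase II. Cells received the solvent DMSO, EPZ-5676 (an inhibitor of the histone methyltransferase DOT1L), HMBA (hexamethylene bisacetamide, a small polar compound that induces HEXIM1), or both compounds. The labels give no dose, time or number of cell clones, and do not say whether libraries came from separate cultures. Because measured levels chose the libraries, every difference below is a description, with no test.

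Epithelial cells are joined by adherens junctions built on E-cadherin (CDH1), sealed by tight junctions and held to the basement membrane by integrins that bind laminins. Simple epithelia fill their cytoplasm with keratins 8, 18 and 19, whereas mesenchymal cells use vimentin (VIM). Which simple epithelium a cell belongs to is set by transcription factors: CDX2 and SOX9 are known from the intestine, and GATA3, ESR1 and FOXA1 from the luminal cells of the breast, among other tissues.

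The targeted gene was examined first, since it bears on the labels. NELFE (ENSG00000204356, chr6:31952087-31959110 on hg38) stood at 146 and 133 CPM (counts scaled to library size) in the 2 libraries. In the 4 HCT116-like libraries it stood at 75.1, 18.1, 78.6 and 20.9 CPM, so it was low in those labelled shNELFE and higher in those labelled shCTL. The library labelled shNELFE of the first epithelial profile was thus above every HCT116-like library, and the library labelled shCTL HMBA was no higher than it. Across the other libraries NELFE was 12.5 to 70.9 CPM in the 5 HCT116-like libraries with HMBA, 81.2 to 99.6 in 3 libraries of a second epithelial profile and 244 to 279 in 2 libraries of a mesenchymal profile.

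The labels of the 2 libraries differ in both shRNA and treatment, and the libraries labelled shNELFE DMSO and shCTL HMBA exist also under number 2, which gives a pair of like labels. HEXIM1, the gene that HMBA induces, was 67.5 and 76.1 CPM in the 2 libraries, against 66.9 and 364 CPM in the pair numbered 2. MYC, the growth-promoting transcription factor, was 185 and 170 CPM in the 2, against 634 and 33.1 CPM in the pair numbered 2. CDKN1A, which encodes the cell cycle inhibitor p21, was 340 and 302 CPM against 166 and 561 CPM. The pair numbered 2 was therefore far apart in all 3 genes, while the 2 libraries of the first epithelial profile were near each other. DOT1L, the target of EPZ-5676, behaved in the same way, with 91.7 and 81.2 CPM in the 2 and 93.2 and 22.5 CPM in the pair numbered 2.

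Over all genes of at least 1 CPM in either library, 98 of 13050 (0.751%) were at least 2-fold higher in the library labelled shCTL HMBA than in that labelled shNELFE DMSO, and 52 (0.398%) were at least 2-fold lower. The same labels numbered 2 gave 1589 of 13805 genes higher (11.5%) and 1905 lower (13.8%). The median absolute log2 difference was 0.152 in the first pair and 0.525 in the pair numbered 2. Among genes of at least 10 CPM, 3 differed 2-fold within the first epithelial profile and 2017 within the pair numbered 2. Of those 3, RN7SL2, a small noncoding RNA gene, and a gene with no symbol fall outside the naming rule, and among the remaining genes at that level the widest gap in each direction was that of SLX1A, a structure-specific nuclease subunit, at 27.02 and 11.7 CPM, and that of LIN54, a subunit of a cell cycle repressor complex, at 5.67 and 11.3 CPM. SLX1A has a near-identical copy, so its counts are uncertain.

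The HCT116-like libraries numbered 2 also gave genes that differ with HMBA and did not involve the 2 libraries. Of 13779 genes, 486 (3.53%) were at least 4-fold higher in the 4 libraries with HMBA, with no overlap with the 4 without it, and 419 (3.04%) were lower. Of the higher genes, 224 were measured in the 2 libraries, and there 6 were 2-fold higher and 2 were 2-fold lower in the library labelled HMBA. Their median log2 difference was 0.0023 within the first epithelial profile and 2.36 between the libraries of like labels numbered 2. Of the lower genes, 289 were measured, with 2 at least 2-fold higher, 0 at least 2-fold lower, and medians of -0.018 and -2.35. The direction was that of number 2 for 50.4% of the higher and 53.3% of the lower genes. In number 2 the genes were chosen partly on the libraries compared, so the size of that difference is no finding.

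**Figure D1:**
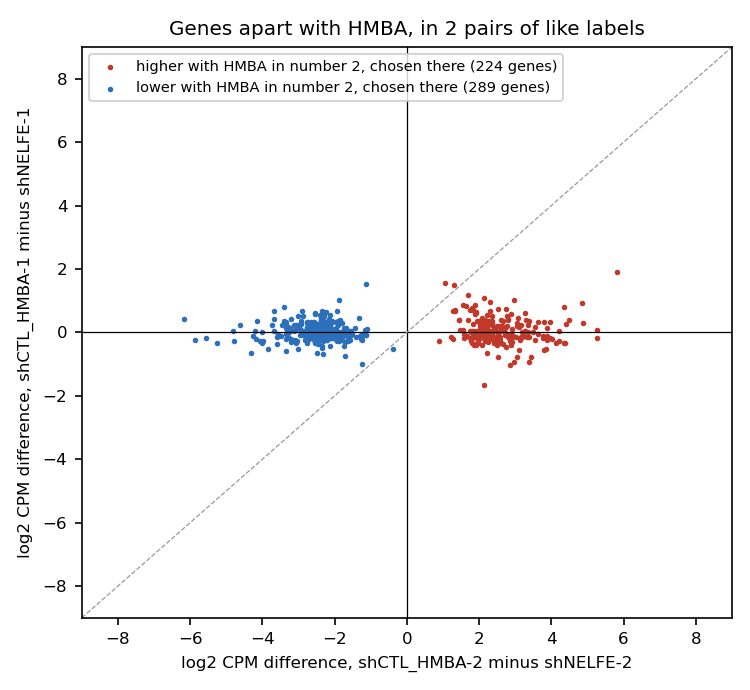
Each point is a gene that differed at least 4-fold with HMBA in the libraries numbered 2. The x axis gives its log2 CPM difference between the libraries labelled shCTL HMBA and shNELFE DMSO numbered 2, and the y axis the same difference between the 2 libraries of the first epithelial profile. The 224 higher genes (red) and 289 lower genes (blue) spread along the x axis and lie close to 0 on the y axis, away from the dashed line of equal differences.

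Total counts were 20816183 and 20129404 in the 2 libraries and 13428893 to 15804336 in the 4, so 3 counts in a library equal 0.144 to 0.223 CPM on unscaled totals. Mitochondrial genes took 8.04% to 8.91% of counts in the 2 and 6.12% to 6.90% in the 4, and their part in the differences was not tested. Pearson's r of log2 CPM over genes, which are no replicates, was 0.992 between the 2, 0.798 to 0.805 with the 4, 0.910 to 0.918 with the second epithelial profile, and 0.768 to 0.785 with all other libraries. The counts of the 2 differed by more than sampling noise, with a chi-square on unscaled totals of 8.71 per gene over 13972 genes. This value is given as a description, and does not say how the libraries were prepared. Bulk RNA cannot tell fewer cells of a type from less RNA per cell.

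Among 14254 genes whose mean reached 1 CPM in one set or the other, 1443 (10.1%) were higher in the 2 libraries and 1988 (13.9%) were lower. Higher and lower here mean at least 4-fold on the log2 scale with all libraries of one set above all of the other. In 514 genes (3.61%) every library of the 2 reached 1 CPM while none of the 4 exceeded 3 counts, and in 529 genes (3.71%) the reverse held. The median log2 difference over the 14254 genes was 0.019, or -0.15 on totals without scaling, and list medians below stand against the first of these. A gene counted as tested through the set in which it was high had to differ, so list counts are given over all listed members as well, and support nothing. Folds below are ratios of summed counts over summed scaled totals.

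**Figure D2:**
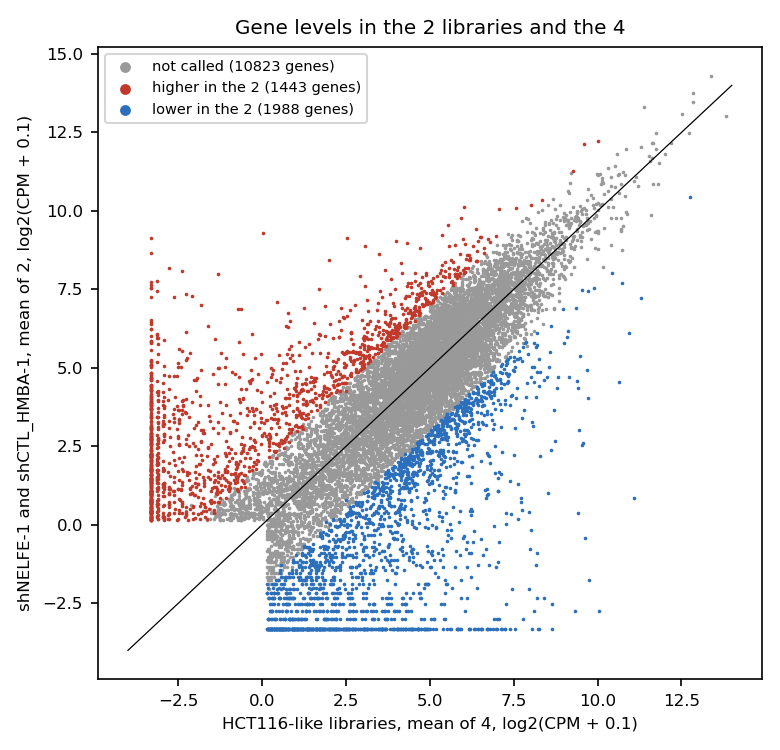
Mean level of each of the 14254 genes, as log2(CPM + 0.1), in the 4 HCT116-like libraries (x axis) and in the 2 libraries (y axis). Red points are the 1443 genes higher in the 2, blue points the 1988 lower, grey points the rest, and the line marks equal levels. Many coloured points lie on the bottom or left edge, where a gene was listed at or near 0 in one set.

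The genes that stood highest in the 2 and at the floor in the 4 included receptors, detoxifying enzymes and transcription factors. GFRA1 (ENSG00000151892, chr10:116056925-116273467), a co-receptor for glial cell line-derived neurotrophic factor, was 566 and 549 CPM in the 2 and had 0 counts in the 4, at least 12192-fold higher when the 4 are given 3 counts together. GSTM3 (ENSG00000134202, chr1:109733932-109741038), a glutathione transferase, was 422 and 389.9 CPM in the 2 and at 0 in the 4, at least 8878-fold higher. SPDEF (ENSG00000124664, chr6:34537802-34556333), an ETS family factor of secretory and luminal epithelia, was 312 and 269.8 CPM against 0.0630, 0.0566, 0 and 0.0600, a ratio of 6353 with a 95% exact binomial interval of 2174 to 30813, which covers counting error only. The rule for this ranking allows no overlap between the sets. The 9 others in the first 12 of this ranking were TXNIP, TSPYL5, CBS, TFF1, FREM2, IGFBP4, FBP1, TBX2 and SELENBP1, with means from 91.02 to 271 CPM in the 2. TXNIP restrains thioredoxin, CBS is cystathionine beta-synthase, FBP1 is a gluconeogenic fructose bisphosphatase, and IGFBP4 binds insulin-like growth factors. In the 4, CBS and FREM2 had 1 count each, TBX2 had 4, FBP1 had 6, and TXNIP, TSPYL5, TFF1, IGFBP4 and SELENBP1 had 0.

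In the reverse ranking, the gene with the widest gap was LDHB (ENSG00000111716, chr12:21635342-21757857), the heart-type subunit of lactate dehydrogenase, at 0.0968 and 0 CPM in the 2 and 985, 1169, 998 and 1039.6 in the 4. Its 2 counts in the 2 give a ratio of 21760.0 in favour of the 4, with an interval of 6024 to 179690.0. GSTP1 (ENSG00000084207, chr11:67583595-67586656), another glutathione transferase, had 0 counts in the 2 and 386, 356, 442 and 404 CPM in the 4, at least 5459-fold lower in the 2. The 2 sets thus had transferases of different classes, GSTM3 in the 2 and GSTP1 in the 4. EREG, a ligand of the EGF receptor family, was 0 and 0.0965 CPM against 728, 869.6, 434 and 544. MSN, which encodes moesin, a linker of actin to the plasma membrane, had 0 counts against 315, 302, 274 and 297 CPM, and GPX1, a glutathione peroxidase, 0 counts against 165, 162, 173 and 174 CPM. CDCP1, NTSR1, CYP24A1, MTAP, PHLDB2, ADGRF1 and ACSL5 completed the 12, with means from 186 to 397 CPM in the 4 and at most 0.0966 CPM in the 2.

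Promoter sequences are shown for 5 genes far apart between the sets because their base composition differs widely within each direction. They are the 250 bases upstream of the RefSeq start (GRCh38.p14), written 5′ to 3′ on the gene's strand, and capitals mark CG dinucleotides (CpG). GSTM3 (chr1:109741039-109741288, minus strand), ESR1 (chr6:151656422-151656671, plus strand) and IGFBP4 (chr17:40443200-40443449, plus strand) were high in the 2 libraries. PHLDB2 (chr3:111732246-111732495, plus strand) and NTSR1 (chr20:62708586-62708835, plus strand) were high in the 4.
GSTM3: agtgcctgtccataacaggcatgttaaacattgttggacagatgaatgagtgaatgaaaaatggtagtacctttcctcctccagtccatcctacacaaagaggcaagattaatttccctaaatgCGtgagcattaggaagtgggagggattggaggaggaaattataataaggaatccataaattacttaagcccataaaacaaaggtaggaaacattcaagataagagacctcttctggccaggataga
ESR1: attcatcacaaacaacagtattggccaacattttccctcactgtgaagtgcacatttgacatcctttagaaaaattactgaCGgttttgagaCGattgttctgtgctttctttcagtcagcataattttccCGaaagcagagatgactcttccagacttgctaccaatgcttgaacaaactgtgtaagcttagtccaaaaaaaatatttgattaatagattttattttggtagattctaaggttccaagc
IGFBP4: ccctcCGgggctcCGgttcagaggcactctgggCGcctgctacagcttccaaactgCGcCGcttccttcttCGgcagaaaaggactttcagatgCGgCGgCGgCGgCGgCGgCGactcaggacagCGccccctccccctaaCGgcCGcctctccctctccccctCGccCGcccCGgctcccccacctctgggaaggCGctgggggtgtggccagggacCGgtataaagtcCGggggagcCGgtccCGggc
PHLDB2: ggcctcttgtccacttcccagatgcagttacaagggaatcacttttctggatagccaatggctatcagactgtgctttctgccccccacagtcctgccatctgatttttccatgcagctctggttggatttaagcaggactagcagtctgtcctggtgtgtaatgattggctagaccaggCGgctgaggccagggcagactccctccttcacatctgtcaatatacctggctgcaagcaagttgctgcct
NTSR1: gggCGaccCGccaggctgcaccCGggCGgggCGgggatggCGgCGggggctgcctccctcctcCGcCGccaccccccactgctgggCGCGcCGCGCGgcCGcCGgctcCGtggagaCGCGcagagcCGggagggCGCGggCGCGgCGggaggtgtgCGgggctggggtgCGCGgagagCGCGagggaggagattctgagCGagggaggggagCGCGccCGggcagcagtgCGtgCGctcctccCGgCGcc
The windows hold 1 CpG in GSTM3, 3 in ESR1, 24 in IGFBP4, 1 in PHLDB2 and 38 in NTSR1, a range that the choice of genes fixed. Each window belongs to the first RefSeq entry of its symbol. Other starts of these genes, and which start was in use in these libraries, were not examined.

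Over all promoters matched by symbol, genes of the 514 had a median of 15 CpG in this window (349 promoters) and genes of the 529 a median of 13 (332 promoters). The 10782 promoters of tested genes had a median of 21, and the 27195 promoters in the table a median of 11. Fewer than 10 CpG were found in 32.4% of the first, 40.1% of the second, 14.3% of the tested and 48.0% of all promoters. The letters TATAAA, on either strand, were found in 10.3%, 11.1%, 5.18% and 11.1% in the same order, and among the 5 shown in IGFBP4 alone. These matches describe the letters in the window and no more.

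Markers of simple epithelium were high in the 2 libraries. CDH1 (ENSG00000039068, chr16:68737225-68835548) was 581 and 575 CPM in the 2 and 97.99, 84.3, 101 and 78.02 in the 4, 6.42-fold higher. KRT19 (ENSG00000171345, chr17:41523617-41528308) was 2430.1 and 2102 CPM against 1110.2, 910.2, 1078 and 996, 2.22-fold higher. VIM (ENSG00000026025, chr10:17228259-17237593) was 1.16 and 0.820 CPM against 3.09, 4.02, 2.86 and 4.56, low in all 6 libraries and lower in the 2. The sets did not overlap in any of these 3 genes, and since they chose the libraries, these values only restate the choice. EPCAM (ENSG00000119888, chr2:47345158-47387601), an adhesion molecule of simple epithelia, went the other way, with 159.5 and 165 CPM in the 2 and 305, 334, 299 and 293 in the 4. The label epithelial therefore has the markers CDH1, KRT8, KRT18, KRT19 and EPCAM behind it in both sets, and the HCT116-like libraries were epithelial by the same markers.

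KRT18, the partner of keratin 8, was 4954 and 4548 CPM against 1087, 846, 1270.0 and 933, 4.63-fold higher, and KRT8 was 10700.0 and 9680.4 CPM against 2813, 2230.4, 3026 and 2582, 3.85-fold higher and below the limit on the log2 scale. Their annotated spans overlap, so some reads may count for either. KRT86, a hair keratin gene with near-identical copies, was the other keratin called higher, at 6.198 and 4.97 CPM against 0.693, 0, 1.49 and 0.660, and its counts are uncertain. Keratins called lower included KRT23 at 0.0484 and 0 CPM in the 2 and 146, 145, 122 and 123 in the 4, and KRT15 at 0.872 and 0.723 against 65.3, 31.5, 68.6 and 33.2. KRT20, a keratin of intestinal surface cells, had 0 counts in the 2 and 2.58, 2.66, 4.16 and 4.68 CPM in the 4. KRT7 at 7.51 and 7.77 CPM lay within the range of the 4, 11.8, 3.79, 18.8 and 7.02. Of 20 keratins listed, 2 were higher, 4 lower, 6 neither and 8 under 1 CPM in both sets. Of the 12 tested, 16.7% were higher and 33.3% lower, against 10.1% and 13.9% of all genes.

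Junction genes were mixed. Of 19 adherens junction genes, 3 were higher and 1 lower, and 7 were under 1 CPM in both sets. Of those listed, 15.8% were higher and 5.26% lower, against 10.1% and 13.9% of all genes tested. CDH1, the cadherin of these junctions, was called higher and chose the libraries, so the higher count may partly restate that choice. NECTIN1, a cell adhesion molecule of these junctions, was 224 and 192 CPM against 22.5, 21.8, 19.95 and 21.6, and its relative NECTIN3 was 0.242 and 0.434 against 99.6, 114, 152 and 157. The 2 nectins were thus exchanged, with no overlap in either. The catenins that tie cadherins to actin were near equal, with CTNNB1 (beta-catenin) at 330.1 and 336 CPM against 321, 320.2, 293 and 289 and CTNNA1 at 627 and 658 against 503, 448, 518 and 468. Tight junction genes stood near the background, with 2 higher and 3 lower of 20 tested and 9 more under 1 CPM. Within them CLDN3, a sealing claudin, was 95.4 and 73.9 CPM against 6.36, 3.23, 3.96 and 2.399, and TJP1, the scaffold ZO-1, was 43.3 and 49.4 against 236, 180.4, 204 and 180.4.

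Desmosome genes, which tie keratins to the membrane, had 1 higher member and 3 lower. PKP1, a plakophilin, was 25.7 and 23.2 CPM in the 2 against 0.126, 0, 0.390 and 0.0600 in the 4, 178-fold higher. The desmosomal cadherins were lower: DSC3 had 0 counts against 29.2, 36.1, 15.3 and 19.1 CPM, and DSG2 was 32.1 and 45.5 CPM against 323, 323, 283 and 303. The plaque genes DSP, at 309.8 ± 30.6 (SD, n = 2) and 255 ± 10.5 (SD, n = 4), and JUP, at 364 ± 26.7 and 349 ± 47.3, were close in the 2 and the 4. Of 13 desmosome genes, 1 was higher, 3 lower, 5 neither and 4 under 1 CPM in both. The higher share was 11.1% of the 9 tested and the lower 33.3%, against 10.1% and 13.9% of all genes. The higher count is thus no result about the list.

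Genes for attachment to the basement membrane were lower in the 2 libraries than in the 4. Of 37 integrin, laminin and related genes, 16 were lower and 0 higher, 11 were neither and 10 were under 1 CPM in both, with a median log2 difference of -2.62 over the 27 tested. The lower share, 59.3% of the tested, stands against 13.9% of all genes. Their summed level was 1230 to 1241 CPM in the 2 and 3918 to 4649 CPM in the 4. ITGA6, the alpha subunit of hemidesmosomal integrin, was 1.36 and 1.78 CPM against 219, 250.4, 174 and 191, 133-fold lower. Its partner ITGB4 was 26.6 and 25.5 CPM against 486, 374, 505 and 456, 17.4-fold lower, and the common beta subunit ITGB1 was 112 and 126 against 726, 666, 649.7 and 596. All 3 integrin subunits were low in both of the 2 and high in all 4, with no overlap.

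LAMB3 and LAMA3 encode chains of laminin-332, the ligand of that integrin in epithelial basement membranes. LAMB3 was 0.533 and 0.434 CPM against 127, 82.4, 113 and 85.5, 209-fold lower, and LAMA3 1.26 and 1.54 against 17.2, 12.6, 19.8 and 19.3. Both chains were thus low in the 2, with no overlap. Of other laminin chains, LAMA2 and LAMA4 were also called lower, with LAMA2 at 0.872 and 1.21 CPM against 31.00, 38.2, 21.5 and 29.7 and LAMA4 at 0 counts against 8.13, 5.32, 7.28 and 6.96 CPM. Chains near equal included LAMC1 at 167 and 175 CPM against 196, 162, 169 and 146 and LAMA5 at 209 and 199.96 against 233, 194, 302 and 278. CD44, a hyaluronan receptor, was 16.5 and 16.4 CPM in the 2 and 865, 870.2, 788 and 804 in the 4, 50.6-fold lower.

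Mesenchymal genes were mostly low, and of the 11 tested 45.5% were lower and 9.09% higher, against 13.9% and 10.1% of all genes. Of 25 listed, 5 were lower, 1 was higher (COL5A1, a collagen chain gene, at 2.42 and 1.83 CPM), 5 were neither and 14 were under 1 CPM in both sets, with a summed level of 114 to 120 CPM in the 2 and 761 to 804 CPM in the 4. NT5E, the ectonucleotidase CD73, was 0.0968 and 0.0965 CPM against 241, 401, 216 and 312, and AXL, a receptor tyrosine kinase, was 0.0484 and 0 against 139.6, 118, 116 and 109. Together these made up most of the difference in the summed level. FN1 (fibronectin) was 5.08 and 4.24 CPM against 23.7, 19.1, 30.6 and 34.5, and CDH2 (N-cadherin) had 0 counts in the 2 and 21 in the 4. Most repressors of E-cadherin were at 0, with ZEB1 at 0 in the 2 and 0.504, 1.36, 1.04 and 1.799 CPM in the 4, and ZEB2 and TWIST1 at 0 in the 2. SNAI1 was 3.15 and 2.85 CPM against 7.56, 7.59, 9.16 and 9.95. Of 12 such factors, 2 were lower, 0 higher and 8 under 1 CPM in both. The 2 are 16.7% of those listed and 50.0% of the 4 tested, against 13.9% of all genes tested.

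Of 30 regulators and products of epithelial identity, 8 were higher and 3 lower, and 1 was under 1 CPM in both. Of the 29 tested, 27.6% were higher and 10.3% lower, against 10.1% and 13.9% of all genes. GRHL2, a grainyhead factor that maintains epithelial junctions, was 186 and 201 CPM in the 2 against 24.3, 22.2, 17.8 and 15.4 in the 4, 9.71-fold higher. ELF5, an ETS factor known from mammary alveolar cells, was 11.6 and 11.9 CPM against 0.693, 0.396, 0.780 and 0.240. KLF5, a factor of proliferating gut and basal epithelium, was 2.03 and 3.52 against 49.8, 64.00, 48.5 and 56.01, 19.8-fold lower. GRHL3, a further grainyhead gene, was 0.0484 and 0.338 CPM against 2.08, 0.453, 1.300 and 0.540, below the 4-fold limit and on the side of KLF5, so the grainyhead genes lay on both sides. The splicing regulators ESRP1 and ESRP2, which set epithelial isoforms, were 1.53-fold and 1.98-fold higher, below the 4-fold limit.

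**Figure D3:**
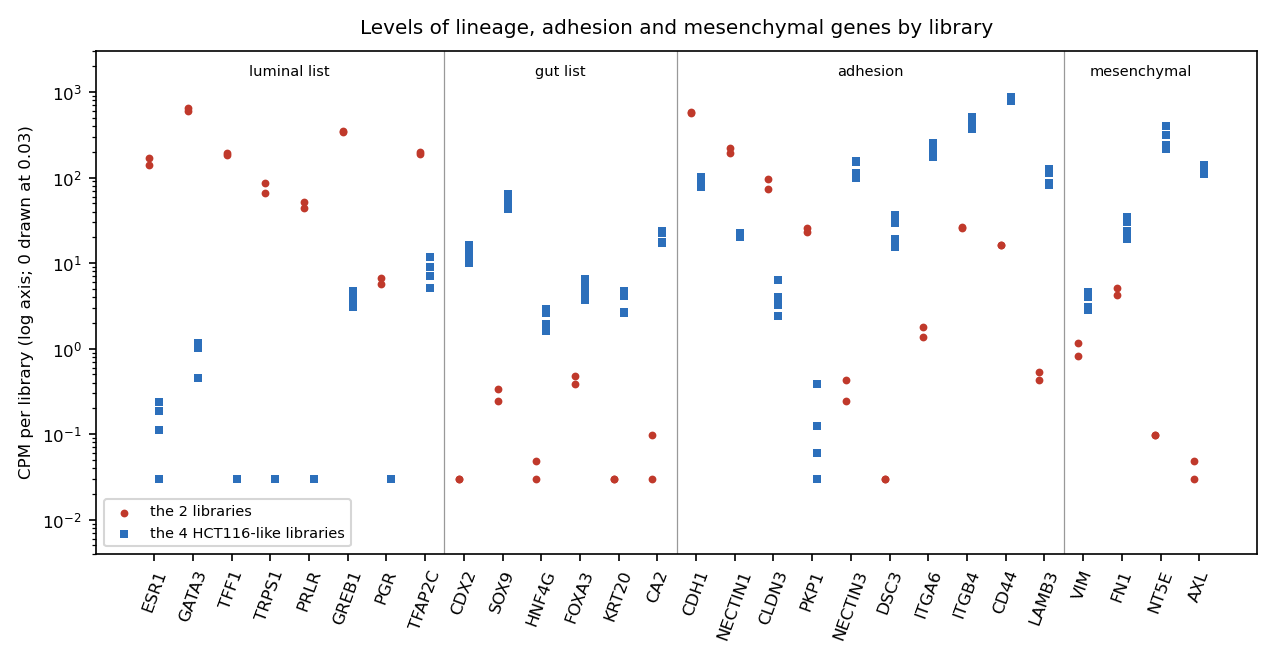
Level of 28 genes in each library, as CPM on a log axis, with 0 drawn at 0.03. Red circles are the 2 libraries and blue squares the 4 HCT116-like libraries, and vertical lines separate genes of the luminal, gut, adhesion and mesenchymal lists. The luminal genes drawn lie higher and the gut, integrin and laminin genes drawn lower in the 2, with no overlap in any of the 28. Left out are gut list members that were higher (SPDEF, FOXA1, ASCL2, GATA4, TFF3 and AGR2). Luminal members that were not called, such as STC2 and SLC39A6, are also left out. CDH1 and VIM, which are drawn, chose the libraries. The genes were chosen after their values were seen.

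Genes known from luminal breast epithelium made up the list with the largest share of higher members among the 33 lists, counted over all listed genes. Of 25 listed, 14 were higher, 0 lower, 4 neither and 7 under 1 CPM in both, with a median log2 difference of 4.81 over 18 tested. The 14 are 56% of those listed, against 10.1% of all genes tested. Their summed level was 3073 to 3092 CPM in the 2 and 357 to 384 CPM in the 4. ESR1 (ENSG00000091831, chr6:151656691-152129619), the estrogen receptor alpha gene, was 142 and 171 CPM in the 2 and 0.189, 0.113, 0 and 0.240 in the 4, 1141-fold higher. GATA3 (ENSG00000107485, chr10:8045378-8075203), a zinc finger factor of luminal cells, was 656 and 605 CPM against 1.01, 0.453, 1.17 and 1.02, 701-fold higher. Both factors were high in each of the 2 libraries and near 0 in each of the 4.

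Genes known as estrogen receptor targets were present with it. TFF1 (ENSG00000160182, chr21:42362282-42366594), a secreted trefoil peptide, was 194 and 182 CPM in the 2 and had 0 counts in the 4, at least 4109-fold higher. GREB1 was 342 and 351 CPM against 3.09, 4.76, 3.64 and 4.14, 88.1-fold higher, and PGR, the progesterone receptor gene, 5.71 and 6.704 CPM against 0 counts. All 3 were higher without overlap, PGR at a far lower level in CPM than ESR1. PRLR, the prolactin receptor gene, was 43.97 and 51.2 CPM against 0 counts, at least 1040.2-fold higher. TRPS1, a GATA-type repressor, was 66.3 and 85.6 CPM against 0 counts. XBP1, a factor of secretory capacity, was 906 and 836 CPM against 76.4, 48.03, 71.8 and 46.4, and CA12, a membrane carbonic anhydrase, 241 and 243 against 9.01, 7.02, 7.47 and 6.18.

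The 4 tested members of the luminal list that were not called were STC2, SLC39A6, NAT1 and TBX3. STC2, a secreted stanniocalcin, was 35.2 and 41.3 CPM in the 2 and 76.9, 93.2, 123 and 139.8 in the 4, 2.83-fold lower and below the 4-fold limit. SLC39A6, a zinc transporter known as an estrogen-induced gene, was 153 and 196 CPM against 152, 167, 140.3 and 157, and the sets overlapped. The secreted mammary products PIP, SCGB2A2, SCGB1D2 and AGR3 had 0 counts in all 6 libraries.

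The 2 sets also differed in genes of intestinal identity, which bear on the labelled tissue. Of 24 intestinal regulators, 8 were lower, 4 higher, 2 neither and 10 under 1 CPM in both. Of the 14 tested, 57.1% were lower and 28.6% higher, against 13.9% and 10.1% of all genes. CDX2 (ENSG00000165556, chr13:27962137-27971139), the homeobox factor of intestinal epithelium, had 0 counts in the 2 and 10.9, 10.1, 16.2 and 13.01 CPM in the 4, at least 172-fold lower. SOX9 (ENSG00000125398, chr17:72121020-72126420), a factor of crypt cells, was 0.339 and 0.241 CPM against 57.03, 64.9, 42.7 and 50.3, 186-fold lower. HNF4G, a nuclear receptor of enterocytes, was 0.0484 and 0 CPM against 2.58, 2.89, 1.62 and 1.92. These factors were absent or near absent in the 2 and present, at modest CPM, in the 4. PDX1 had 0 counts in the 2 and a mean of 1.44 ± 0.358 CPM (SD, n = 4) in the 4.

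The 4 higher regulators of that list are shared with other tissues: SPDEF, FOXA1, ASCL2 and GATA4. FOXA1, a pioneer factor of breast, prostate and gut, was 130.2 and 146 CPM against 1.197, 1.13, 1.49 and 1.26, 109-fold higher. ASCL2, known from intestinal stem cells, was 15.7 and 13.7 CPM against 0 counts. GATA4, a factor of foregut and heart, was 8.67 and 7.28 CPM against 0 counts.

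Differentiated intestinal products were scarce in both sets: of 38 markers, 32 were under 1 CPM in both, 2 were higher and 3 lower. Of the 6 tested, 33.3% were higher and 50.0% lower, against 10.1% and 13.9% of all genes. The summed level was 11.7 to 13.4 CPM in the 2 and 27.8 to 39.8 CPM in the 4, and 26 of the 38 had 0 counts in both of the 2, among them CDH17, GPA33, LGALS4 and FABP1. CA2, a cytosolic carbonic anhydrase, was 0 and 0.0965 CPM against 22.6, 17.3, 23.9 and 17.6, and USH1C, a brush border scaffold gene, was 0.0484 and 0.0965 against 6.74, 5.32, 6.82 and 5.04. TFF3 and AGR2, both secretory genes, went the other way, with TFF3 at 6.34 and 5.31 CPM and AGR2 at 2.76 and 2.701 CPM in the 2 and 0 counts in the 4. The defining gut markers VIL1 and CDX1 were under 1 CPM in both sets.

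Beyond those lists, 210 lineage transcription factors gave 37 higher and 37 lower, 44 neither and 92 under 1 CPM in both, with a median log2 difference of -0.080 over 118 tested. Each direction held 31.4% of the tested factors, against 10.1% and 13.9% of all genes. TBX2, a T-box repressor, was 160.4 and 143 CPM in the 2 and 0, 0.0566, 0.130 and 0.0600 in the 4, 2490.5-fold higher. IRX3 and IRX5, neighbouring Iroquois homeobox genes on chromosome 16, were 76.03 and 64.8 CPM and 37.04 and 38.97 CPM in the 2 and at most 0.252 CPM in the 4. DLX3, a distal-less homeobox gene, was 21.1 and 19.6 CPM with 0 counts in the 4.

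The lower factors included ONECUT3 and RUNX3, each with 0 counts in the 2 and with 35.04, 27.6, 31.6 and 27.8 CPM and 22.9, 20.5, 30.2 and 23.1 CPM in the 4. All 3 members of the PEA3 group of ETS factors, which respond to receptor kinase signalling, were low in the 2. ETV1 had 0 counts against 10.9, 15.97, 8.51 and 12.5 CPM, ETV4 was 0.387 and 0.482 CPM against 39.1, 38.9, 38.9 and 35.1, and ETV5 was 0.194 and 0.145 against 37.1, 31.9, 27.6 and 23.6. MSX1 was 0.678 and 0.289 CPM against 36.4, 30.5, 44.00 and 54.7, 85.3-fold lower.

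HOX genes, which record position along the body axis, were lower in most of those tested. Of 39 genes, 15 were lower, 2 higher, 8 neither and 14 under 1 CPM in both, with a median log2 difference of -4.0 over 25 tested. Of those listed, 38.5% were lower and 5.13% higher, against 13.9% and 10.1% of all genes tested. The higher share was thus below that of all genes. The lower genes were 6 of the A cluster, 8 of the B cluster and 1 of the D cluster. HOXA9 had 0 counts in the 2 and 42.2, 66.3, 52.1 and 61.6 CPM in the 4, and HOXA10 0 counts against 13.9, 15.2, 16.4 and 15.5 CPM. HOXB9 was 0.0968 and 0 CPM against 16.3, 17.8, 14.4 and 13.8, and HOXB13, a factor of the hindgut and prostate, had 0 counts against 5.55, 5.21, 5.72 and 7.68 CPM. The 2 higher genes lay in the C cluster: HOXC10 was 35.7 and 34.6 CPM against 1.39, 1.81, 1.300 and 1.199, 24.5-fold higher, and HOXC11 was 4.36 and 4.87 against 0.0630, 0.113, 0.195 and 0.240. Several HOX genes overlap in the annotation and the strand setting of the counts is not given, so single members of a cluster are uncertain.

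Receptor tyrosine kinases were exchanged: of 32 listed, 6 were higher, 8 lower, 10 neither and 8 under 1 CPM in both. EGFR was 1.36 and 1.06 CPM in the 2 and 138, 161, 150.2 and 173 in the 4, 129-fold lower, while its relative ERBB3 was 164 and 177 CPM against 28.9, 29.5, 25.2 and 24.4, 6.302-fold higher. ERBB4 was 6.44 and 8.25 CPM against 0 counts. ERBB2 was 173 and 162 CPM against 69.98 ± 9.53 (SD, n = 4), 2.39-fold higher and below the 4-fold limit. Within the EGF receptor family, then, EGFR was lower in the 2 and the other 3 lay above the 4, ERBB2 by less than 4-fold. MET, the hepatocyte growth factor receptor gene, was 42.7 and 47.6 CPM against 414, 465, 307 and 355, and EPHA2 5.08 and 3.86 against 367, 322, 281 and 288. IGF1R, the receptor of insulin-like growth factors, was 158 and 149.6 CPM against 10.3, 9.69, 14.4 and 12.7, and EPHB3 85.3 and 71.2 against 1.197, 1.59, 1.75 and 1.92, both higher without overlap.

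Of 32 Wnt pathway genes, 8 were lower, 2 higher, 13 neither and 9 under 1 CPM in both, with a median log2 difference of -0.88 over 23 tested. The lower share was 34.8% of the tested and the higher 8.7%, against 13.9% and 10.1% of all genes. The ligand WNT16 had 0 counts in the 2 and 105, 166, 65.4 and 106 CPM in the 4. The secreted inhibitor DKK1 was 19.4 and 21.3 CPM against 677, 632, 736 and 679, 33.3-fold lower. Among the feedback genes of the pathway named here, APCDD1 alone lay on the higher side, near the 1 CPM limit. The 2 higher genes of the list were APCDD1, a membrane inhibitor, at 1.16 and 1.01 CPM against 0 counts, and the ligand WNT6 at 2.81 and 1.64 against 0.315, 0.283, 0.195 and 0.300, while RNF43, a ubiquitin ligase that removes Wnt receptors, was 1.67-fold lower and not called. Lower feedback genes included NOTUM at 0.387 and 0.434 CPM against 7.94, 7.87, 11.05 and 7.38 and AXIN2 at 0.678 and 0.482 against 3.59, 5.21, 5.85 and 8.46. The nuclear partner TCF7 was 0.194 and 0.531 CPM against 13.9, 16.5, 16.4 and 17.6. Receptors and members of the destruction complex were not called and lay on both sides, with LRP5 1.84-fold and AXIN1 3.52-fold higher in the 2 and APC 2.25-fold lower.

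Among 24 tumour suppressor and repair genes, 2 were higher and 5 lower, shares near those of all genes, so the counts are no result about the list and its members are given as values. MGMT, which repairs alkylated guanine, was 39.9 and 34.2 CPM in the 2 and 10.4, 9.29, 9.75 and 7.32 in the 4, 4.04-fold higher. TGFBR2, the transforming growth factor beta receptor gene, was 3.49 and 4.44 CPM against 52.5, 76.5, 36.1 and 59.8, 14.4-fold lower. CDKN1A was 339.9 and 302 CPM against 110.3, 166, 82.7 and 132, higher in the 2 without overlap but below the 4-fold limit.

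The largest gap in that list was at neighbouring genes of chromosome 9. MTAP (ENSG00000099810, chr9:21802543-21937651), an enzyme of methionine salvage, had 2 counts in the 2 and 266, 320.3, 245 and 261 CPM in the 4, a ratio of 5682 in favour of the 4 with an interval of 1573 to 46922. CDKN2A (ENSG00000147889, chr9:21967753-21995301), which encodes the cell cycle inhibitors p16 and ARF, had 1 count in the 2 and 14.1, 15.9, 11.3 and 11.2 CPM in the 4. CDKN2B (chr9:22002903-22009363), a related inhibitor, was 0.339 and 0.434 CPM against 5.29, 3.46, 3.900 and 3.12. MTAP and CDKN2A were thus at the floor in the 2, while CDKN2B, with 7 and 9 counts, was low but above it. Low MTAP and CDKN2A were not particular to the 2. In the second epithelial profile MTAP was 0 to 0.159 CPM and CDKN2A 0.0989 to 0.265 CPM, but CDKN2B was 3.58 to 4.56 CPM. KLHL9 (chr9:21329671-21335380), toward the chromosome end, was 13.99 and 17.1 CPM against 70.95, 69.8, 60.8 and 60.8, and FOCAD (chr9:20658309-20995955), farther in that direction, 55.6 and 56.2 against 49.5, 51.8, 45.2 and 46.4. Expression alone does not give the state of the DNA, which was not analysed here.

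Of the cancer-testis genes, which are silent in most adult tissues, 3 were present in the 4 with 0 counts in the 2. MAGEB2 had 0 counts in the 2 and 125, 129, 131 and 124 CPM in the 4, and MAGEA3 0 counts against 100.3, 105, 108 and 114 CPM. MAGEA2 also had 0 counts against a mean of 72.3 ± 9.68 CPM (SD, n = 4), though MAGEA genes have near-identical copies and their split is uncertain. PRAME went the other way, with 61.3 and 58.1 CPM against 35.4, 33.4, 33.3 and 33.6. Of 28 listed, 3 were lower, 0 higher, 2 neither and 23 under 1 CPM in both, and 24 had 0 counts in the 2.

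Markers of other tissues were examined over whole lists. Counts in these lists stand against 10.1% higher and 13.9% lower among all genes tested, and many of the lists had few tested members. Of 16 prostate genes, 4 were higher and 5 lower, with a summed level of 72.3 to 75.7 CPM in the 2 and 46.8 to 57.03 CPM in the 4. TMPRSS2, a serine protease gene, was 33.4 and 34.5 CPM against 0 counts, while the secreted products KLK2 and KLK3 had 0 counts in all 6 libraries, and STEAP2 had 0 counts in the 2 and 12.5, 13.3, 9.42 and 11.6 CPM in the 4. Of 13 neuroendocrine genes, 1 was higher, 1 lower and 11 under 1 CPM in both. CHGA, chromogranin A of secretory granules, was 29.1 and 28.2 CPM against 0 counts, and SCG2, another granule protein gene, had 0 counts against 16.2, 14.6, 19.6 and 24.9 CPM. The granule genes CHGB, SCG3 and PCSK1 had 0 counts in all 6.

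Of 16 blood genes, 2 were higher, LCP1 at 63.1 and 58.9 CPM against 3.15, 2.096, 3.705 and 3.24 and CORO1A at 12.6 and 10.6 against 2.14, 2.72, 1.69 and 1.799, both actin-binding proteins. The other 14 were under 1 CPM in both sets, and the defining markers PTPRC, CD3E, MS4A1 and CD34 had 0 counts in the 2. The blood list summed to 69.8 to 76.3 CPM in the 2 and 5.52 to 5.92 CPM in the 4. Of 18 squamous and basal genes, 1 was higher and 3 lower, with 101 to 118 CPM in the 2 and 204 to 344 CPM in the 4. The sum in the 2 was carried by SFN, which was not called, at 114 and 98.1 CPM against 278, 181, 226 and 156. KRT5, KRT14, KRT6A and DSG3 had 0 counts in the 2, and SERPINB5 was 1.11 and 0.916 CPM against 19.7, 21.9, 19.7 and 18.1. The higher member was TP63, the factor that defines basal epithelium, at 1.26 and 0.820 CPM against 2 counts over the 4.

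Liver, lung, pancreas and kidney lists were mostly silent. In the 22 liver genes, 3 were higher and 1 lower, with 40.2 to 41.1 CPM in the 2 and 35.3 to 45.5 CPM in the 4, and AFP, APOH and TTR at 0 in all 6. APOA1 was 4.02 and 2.46 CPM and AMBP 4.55 and 4.196 CPM in the 2, with 1 count each in the 4. In the 16 lung genes, 2 were higher and 1 lower, with 169 to 179 CPM against 35.0 to 36.9 CPM, carried by the lipid transporter ABCA3 at 171 and 161 CPM against 29.5, 28.8, 28.3 and 30.8, and SFTPB and SCGB1A1 at 0 in all 6. In the 16 pancreas genes, 2 were higher and 2 lower, with 57.4 to 66.0 CPM against 15.2 to 20.99 CPM, carried by the mucin gene MUC1 at 60.1 and 52.2 CPM against 2.33, 1.76, 2.34 and 1.74, and PTF1A and CPA1 at 0 in all 6. In the 14 kidney genes, 2 were higher and 2 lower, with 16.2 to 16.4 CPM against 19.6 to 21.8 CPM, and PAX2 at 0 in the 2. The higher kidney genes were LRP2, an endocytic receptor gene, at 1.94 and 2.99 CPM against 4 counts over the 4, and LHX1, a LIM homeobox gene, at 2.61 and 2.27 CPM against 0.0630, 0.340, 0.130 and 0.0600. The liver sum rested on CPS1, a urea cycle enzyme gene, at 25.7 and 28.7 CPM against 40.4, 39.2, 33.4 and 30.3.

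The remaining lists had few members present in the 2 libraries. Of 13 stomach genes, 0 were higher and 1 lower (0.339 to 0.627 CPM in the 2 and 7.31 to 12.2 CPM in the 4), with CLDN18 and GKN1 at 0. Of 12 Müllerian and mesothelial genes, 1 was higher and 3 lower (8.20 to 8.96 CPM and 39.5 to 73.3 CPM), with WT1 and SOX17 at 0 and WFDC2 the higher member, at 1.11 and 1.25 CPM against 0 counts. Of 18 neural and melanocyte genes, 0 were higher and 2 lower (48.4 to 52.2 CPM and 214 to 259 CPM), with SOX10 and MLANA at 0. Of 8 urothelial genes, 0 were higher and 0 lower (1.54 to 2.18 CPM and 2.22 to 4.54 CPM), with UPK1B at 0. Of 7 thyroid genes, 0 were higher and 1 lower (1.89 to 2.07 CPM and 7.87 to 11.9 CPM), with TG at 0. Of 13 endothelial and muscle genes, 1 was higher and 2 lower (2.80 to 3.10 CPM and 3.23 to 5.85 CPM), with PECAM1 and CDH5 at 0. The higher member was ERG, an endothelial ETS factor gene, at 1.45 and 1.64 CPM against 0 counts, and VWF, which was not called, stood at 1.598 and 1.16 CPM against 0.945, 0.850, 0.845 and 0.959. Of 12 pluripotency and germ cell genes, 1 was higher and 0 lower (21.8 to 23.2 CPM and 0.420 to 0.756 CPM). That gene was SALL4, a zinc finger factor of early embryos, at 21.6 and 23.1 CPM against 0.378, 0.510, 0.390 and 0.180, and NANOG and DDX4 were at 0.

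**Figure D4:**
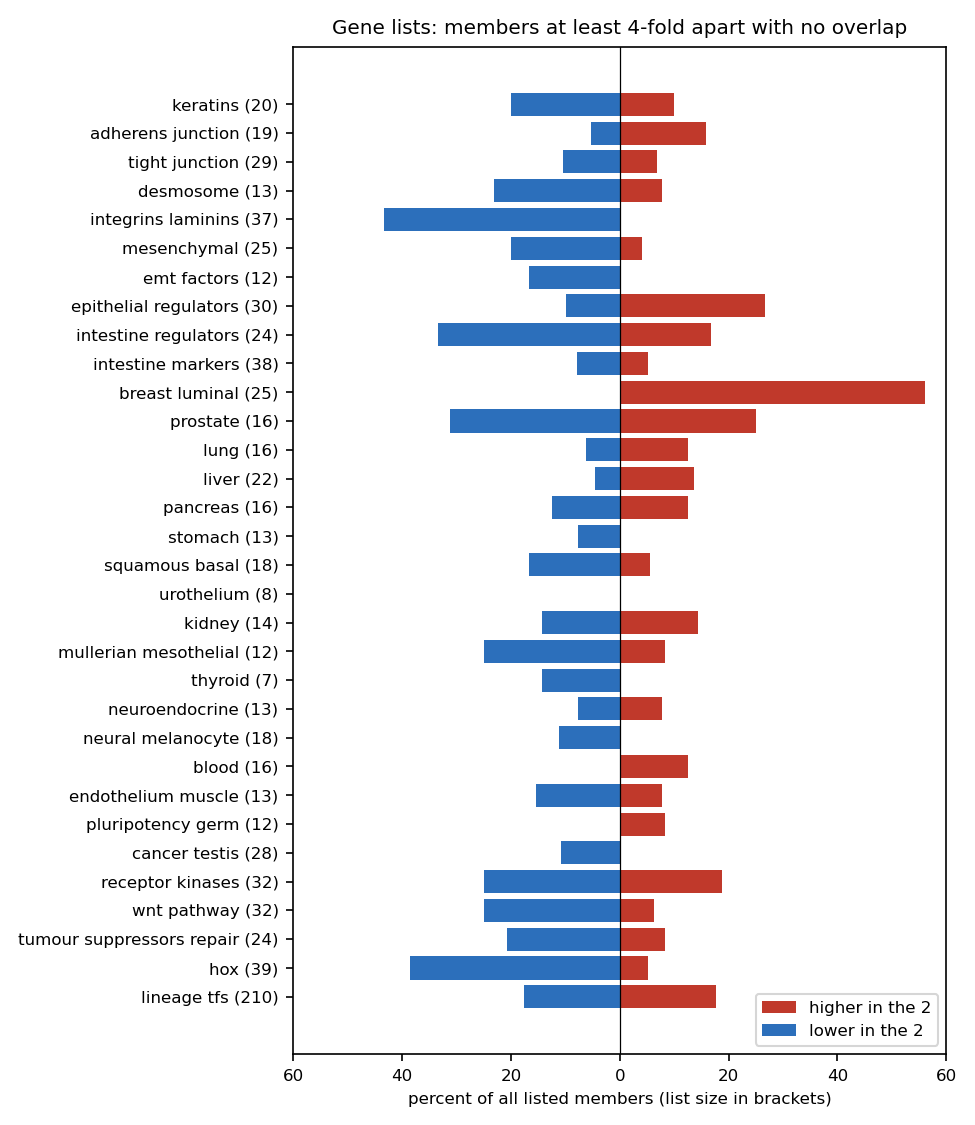
Share of all listed members that were higher (red, to the right) or lower (blue, to the left) in the 2 libraries than in the 4, for 32 gene lists with the list size in brackets. The luminal breast list reaches 56% on the higher side, and the integrin and laminin list 43.2% on the lower side with 0 higher.

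The main luminal factors were not particular to the 2 libraries. In 3 other libraries, numbered 1 and labelled shNELFE HMBA, shNELFE EPZ-5676 and shCTL EPZ-5676, which make up the second epithelial profile, ESR1 was 217 to 259 CPM, GATA3 1134 to 1328 and FOXA1 356 to 448. Of the 514 genes present in the 2 and at the floor in the 4, 335 (65.2%) reached 1 CPM in all 3 of those libraries, 228 (44.4%) in both mesenchymal libraries and 3 (0.584%) in all 5 HCT116-like libraries with HMBA. Of the 529 with the reverse pattern, 53 were present in the second epithelial profile and 398 (75.2%) in the HCT116-like libraries with HMBA. GSTP1, MSN and CDX2 had 0 counts in the second epithelial profile too, while MSN was 687 to 714 CPM in the mesenchymal one.

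A direct comparison of the 2 libraries with the second epithelial profile found 609 of 13819 genes higher in the 2 (4.41%) and 969 lower (7.01%) by the same 4-fold and non-overlap rule. Estrogen-linked genes were present in both but at different levels. PGR was 5.71 and 6.704 CPM in the 2 against 70.02 to 84.5 in the 3, TFF1 194 and 182 against 2832 to 3366, and STC2 35.2 and 41.3 against 1170.5 to 1320.5. Secretory AGR2 was 2.76 and 2.701 CPM against 1449.8 to 1791, and ITGB4 26.6 and 25.5 against 739.8 to 1092. The 2 were thus lower than the 3 in each of these 5 genes, without overlap. CA2 was likewise 0 and 0.0965 CPM against 269 to 314. Higher in the 2 were ELF5 at 11.6 and 11.9 CPM against 0.901 to 1.49, EHF, an epithelial ETS factor, at 11.4 and 12.5, and PRAME at 61.3 and 58.1, the last 2 against 0 counts. IRX3 was 76.03 and 64.8 CPM against 9.04 to 13.3, and CA12 was 241 and 243 against 58.8 to 63.5, below a 4-fold gap.

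In 39 of the 514 genes (7.59%), none of the other 14 libraries exceeded 3 counts. GGT6 (ENSG00000167741, chr17:4556927-4560818), a gamma-glutamyltransferase family gene, led these with 61.3 and 56.96 CPM in the 2 and at most 2 counts in any of the 4. CHGA (ENSG00000100604, chr14:92923080-92935293) followed with 29.1 and 28.2 CPM. Both were near 0 in all other profiles, with at most 0.148 CPM in the second epithelial libraries. The cytokine genes IL20, at 14.2 and 12.9 CPM, and IL24, at 6.73 and 6.56 CPM, lie close to each other on chromosome 1 (chr1:206865354-206869223 and chr1:206897443-206904139) and had 0 counts in the 4. TDRD1, a germ cell gene of the piRNA pathway, was 8.57 and 11.1 CPM, and CX3CL1, a membrane-bound chemokine gene, 5.33 and 4.92 CPM, both with 0 counts in the 4. PGLYRP2, CEACAM21, GUCY1A1, RIC3, DLK1 and ZNF727 completed the first 12, with means of 4.11 to 12.95 CPM. Conversely, 113 of the 529 genes were at the floor in the 2, the second epithelial and the mesenchymal libraries, 7 in all.

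**Figure D5:**
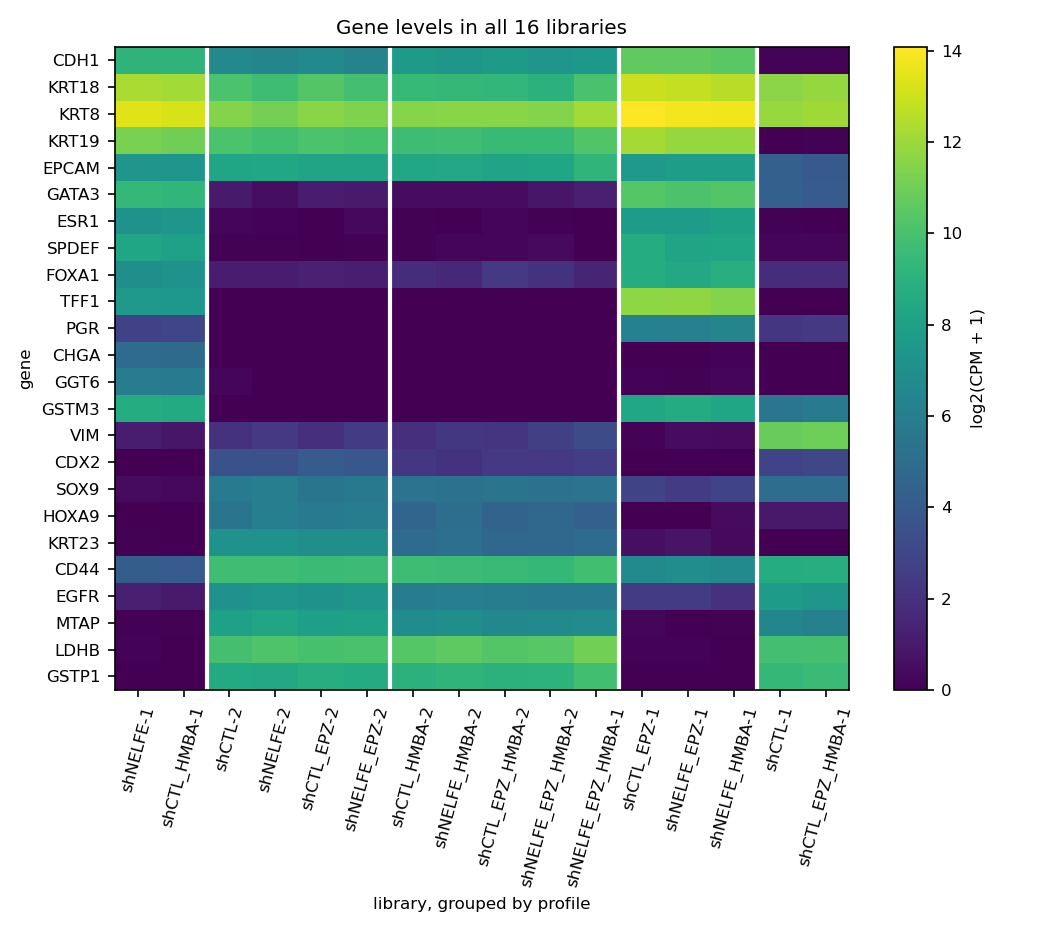
Level of 24 genes in all 16 libraries, as log2(CPM + 1), with libraries grouped by profile and white lines between the groups: the first epithelial profile, 4 HCT116-like libraries without HMBA, 5 with HMBA, the second epithelial profile and the mesenchymal profile. GATA3, ESR1, SPDEF, FOXA1 and TFF1 are high in both epithelial profiles, CHGA and GGT6 in the first alone, and LDHB and GSTP1 are near 0 in both epithelial profiles. The genes were chosen after their values were seen.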

How the data were processed

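RNA-seq was deposited as 1 table of raw read counts per gene, made by the authors, with 60676 rows named by Ensembl identifiers. The submitters' processing notes name hg38 and, with no role, edgeR, HTSeq 0.6.1p1, Cufflinks 2.1.1 and STAR 2.4.0b. The sources used here give neither the strand setting nor the annotation release. Libraries came from a stranded TruSeq mRNA kit, per the labels' protocols. Of the rows, 41576 had a symbol, 58503 had a GENCODE release 29 position, and 511 genes, those of chromosome Y with XIST and TSIX, were left out of all counts and names.

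CPM were computed on totals scaled by TMM over 16 libraries (edgeR 4.0.16, R 4.3.3, Python 3.11.15, filterByExpr, 17625 genes), and log2 values with 2 counts as prior. A gene entered the comparison, here called tested, when its mean reached 1 CPM in one set or the other. It was called higher or lower with no overlap and a log2 difference of at least 2, present at 1 CPM in every library, and at the floor at 3 counts or fewer. No test was run, because measured values chose the libraries. Where a set had 0 counts, the fold is a bound that assigns it 3. Intervals (exact binomial, 95%) and floors cover counting error only.

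The 2 libraries, the 33 gene lists (865 entries) and the rules were chosen with earlier results of these data known. The rule for named genes took marker and label genes whatever their values, up to 4 higher, 4 lower and 4 high uncalled members of each list, the 12 widest gaps of each direction present in one set and at the floor in the other, and the 6 widest gaps each way between the 2 libraries. Further list members, the genes of the second epithelial comparison, the 5 promoters shown and the 12 genes found in no other library were picked after their values were seen. Promoters are the first RefSeq entry of each symbol, without chromosomes 8 and Y. Motifs of E-box, forkhead, GATA and estrogen receptor factors were also searched and are not reported. Some genes counted in the lists are not reported here by name. Alternatives were unscaled totals, RLE factors, other floors, minimums and prior counts, all 9 HCT116-like libraries, and leaving out each of the 6 libraries.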

Additional observations from a re-analysis of the deposited data

How the results depend on the processing

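The counts of genes stayed within 1.5 times of their values under most alternatives. Leaving out each of the 6 libraries in turn gave 1433 to 1486 genes higher, 1903 to 2118 lower, 529 to 563 present in the 2 and at the floor in the 4, and 539 to 618 for the reverse. Unscaled totals gave 1311 higher and 2255 lower, RLE factors 1411 and 1999, and all 9 HCT116-like libraries 1573 and 2033. Counts of presence moved with their limits: at 5 CPM for presence they were 213 and 227, and with a floor of 0 counts 303 and 307. Genes 2-fold apart between the 2 libraries numbered 150, and 3 at a minimum of 10 CPM. Of 2061 recomputed log2 differences of 229 named genes, 1816 moved by less than the spread between libraries, 245 by more, and 0 reversed among called genes. No paired analysis was possible because the libraries were compared by profile, with no test, and the 2 have no partner of their own number among the 4. Nothing states that libraries came from separate cultures, so the spread between them may be technical. Each within-profile comparison has 1 library on each side. Genes with fewer than about 3 counts in a library could not be told from absent.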
